A study of Mus musculus with 12 samples.

Results

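The leukotriene, lipoxygenase and thromboxane genes described here are Alox5, Alox5ap, Alox15, Ltc4s, Lta4h, Cysltr1, Ltb4r1, Tbxas1 and Ephx2. They were found by matching the Ensembl identifiers of the count table to these symbols, which gave 9 of 48526 genes. They were read in bone marrow-derived macrophages (BMDMs), cells grown from whole mouse marrow with macrophage colony-stimulating factor, from 3 female C57Bl/6J mice without an engineered allele in the labels. On day 7, cells of each mouse received plain medium (Untreated), 100 ng/mL Wnt3a, 100 pg/mL IL-4, or both agents, for 16 hr. Wnt3a is a secreted activator of the Wnt pathway, and IL-4 is the type 2 cytokine that signals through STAT6. The labels give no age, and the study's methods give only a range of ages for marrow donors.

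Leukotrienes are lipid signals that leukocytes make from arachidonic acid. 5-lipoxygenase (Alox5), helped by its partner FLAP (Alox5ap), makes the unstable epoxide leukotriene A4. Leukotriene C4 synthase (Ltc4s) joins this epoxide to glutathione and so opens the cysteinyl branch, which acts through Cysltr1, while leukotriene A4 hydrolase (Lta4h) makes the neutrophil attractant leukotriene B4, which acts through Ltb4r1. Thromboxane synthase (Tbxas1) works on the product of the cyclooxygenases instead, Alox15 makes 12- and 15-hydroxylated lipids, and soluble epoxide hydrolase (Ephx2) opens the epoxides of fatty acids. Macrophages are a known source of leukotrienes and of thromboxane.

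The deposited values are reads counted per gene, and the columns labelled Wnt3a and Wnt3a+IL4 of each mouse hold shared reads. In each mouse, subtracting the Wnt3a+IL4 counts from the Wnt3a counts, and this result again from the Wnt3a+IL4 counts, left 0 of 48526 genes below 0. The first result is called the difference and the second the remainder, and these 2 parts were used in place of the columns. Both parts come from cultures that received Wnt3a. The labels do not say which part also received IL-4, and the values were not used for that. The resulting 12 libraries, 3 in each group, held between 13342492 and 17453377 counts. The summed level of the 7 macrophage markers listed lay between 43600 and 67700 CPM (counts scaled to a common library size, with edgeR's TMM factors), and the 4 T cell markers were at 0 or close to it. Most of the macrophage sum was Lyz2, at 45400, 37900, 53000 and 47000 CPM on average in untreated, IL-4, difference and remainder libraries. In this order, Itgam averaged 127, 126, 265 and 236 CPM and Fcgr1 130, 100, 273 and 197. Csf1r averaged 5230, 5610, 4790 and 4680 CPM, and Adgre1 2440, 2300, 3030 and 2860. Cd68 averaged 1840, 2030, 1690 and 1930 CPM, and Mertk 124, 107, 111 and 105. Treatment checks did not all go one way. Arg1, an IL-4 response gene, was at 0.0638 CPM in untreated cells, 1.53 with IL-4, 0.0204 in the difference and 12.8 in the remainder, whereas Retnla, another such gene, was at 41.9 CPM with IL-4 and had 1 count in all 3 libraries of each other group. Axin2, a Wnt target, had 1, 1, 7 and 33 counts in the untreated, IL-4, difference and remainder libraries and was not tested.

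Of the 9 genes, 7 passed the filter of at least 10 counts in at least 3 libraries, and 2 (Alox15 and Ephx2) did not. Among these 7, Tbxas1 rose with IL-4, Alox5 fell in the difference, and compared with untreated cells the remainder had a change in 3 genes. There, Ltc4s and Tbxas1 were higher and Alox5 was lower. Lta4h, Alox5ap, Cysltr1 and Ltb4r1 did not pass the test in any of these comparisons. The tests were edgeR's quasi-likelihood tests over 12421 genes with a Benjamini-Hochberg adjusted p threshold of 0.05. With 3 mice per group and no mouse term, the p-values judge each change against the spread between these cultures.

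These counts were read against all genes tested. With IL-4, 1 of 7 genes was called against 3.4% of all genes (2.31% higher and 1.09% lower). In the difference, 1 of 7 was called against 23.2% of all genes (11.8% higher, 11.4% lower), so the count is no larger than the background. In the remainder, 3 of 7 were called against 25.3% (13.6% higher, 11.7% lower). Between remainder and difference, 3 of 7 were called against 5.25% (2.87% higher, 2.38% lower). Median log2 fold changes of the 7 were 0.03, 0.02, 0.04 and 0.02 in this order, beside −0.003, −0.01, −0.02 and 0.01 over all genes, so the members did not move as a block. With scaling by total counts alone, these medians of all genes were −0.06, −0.10, −0.13 and −0.01. The calls over all genes then split into 247 higher and 212 lower with IL-4 (287 and 135 in the main scaling), 1131 and 2238 in the difference (1462 and 1422), and 1293 and 2342 in the remainder (1687 and 1450).

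**Figure D1:**
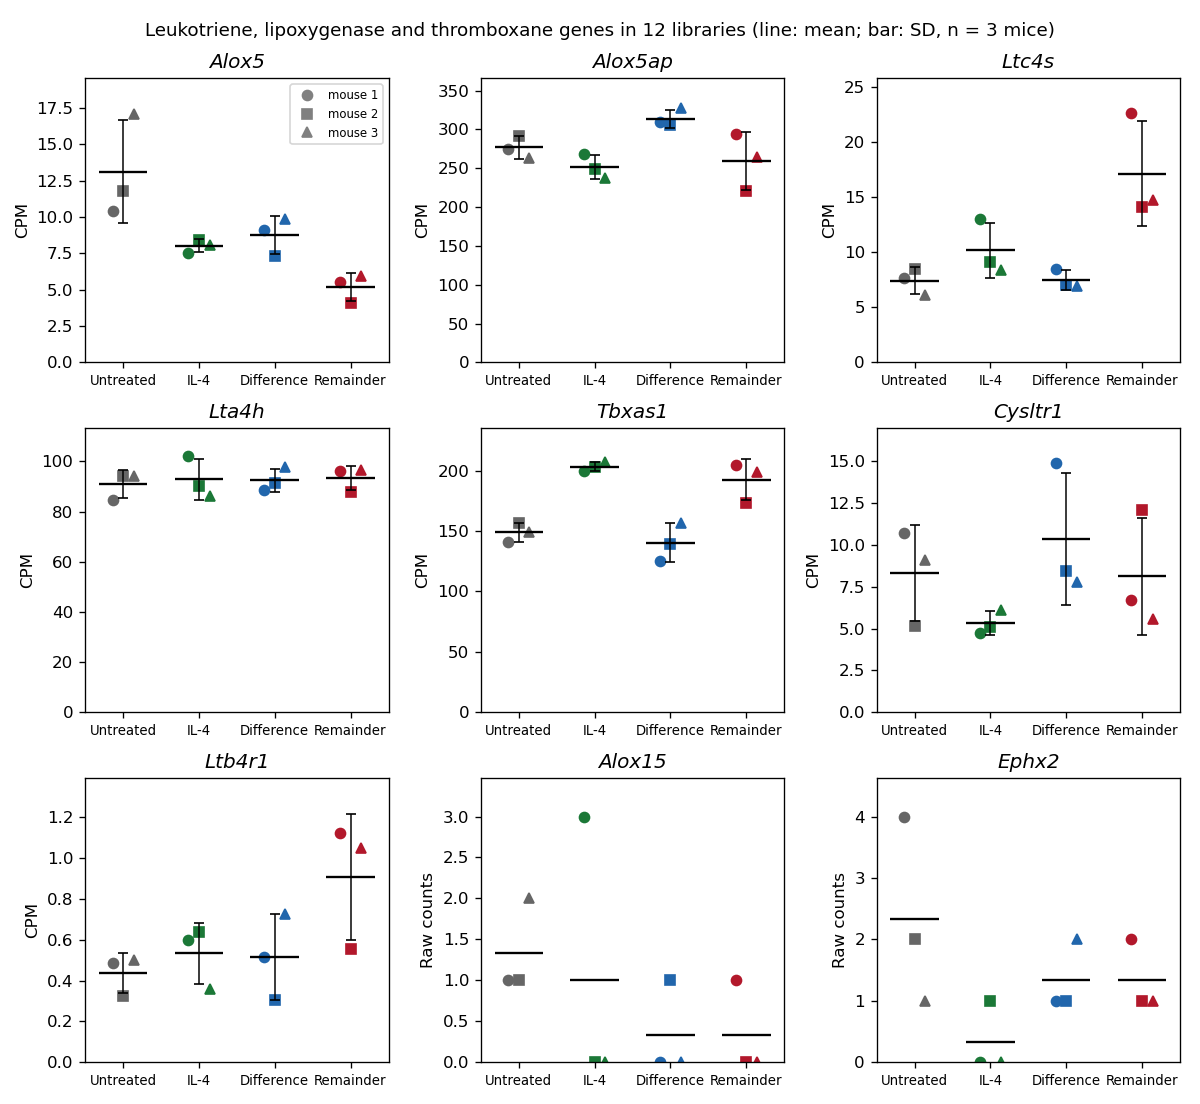
Level of each of the 9 genes in the 12 libraries, in CPM (raw counts for Alox15 and Ephx2), by group, with a symbol for each mouse, the mean as a line and the SD (n = 3) as a bar. Alox5 is lowest in the remainder (4.06 to 5.91 CPM), Ltc4s is highest there (14.1 to 22.6 CPM), and Tbxas1 lies between 173 and 207 CPM in the IL-4 and remainder libraries and at 157 CPM or below in the others.

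Upstream sequence is shown for the 3 genes that were called, Alox5, Ltc4s and Tbxas1, since they moved in different directions in the same libraries. The windows come from RefSeq on GRCm38.p6, the assembly of mm10, reach up to 250 bases before the RefSeq start, and were available for 5 of the 9 genes. Bases that GENCODE M21 places in an exon of the same gene were left out, which removed 84 bases next to the start of Ltc4s and 6 next to that of Tbxas1. Capitals mark matches on either strand to 5 letter patterns: TTCNNNNGAA (STAT6-type), TTCNNNGAA (STAT3-type), CTTTGAA and CTTTGAT (TCF/LEF-type) and GGGNNNNNCC (NF-κB-type). The printed stretches are chr6:116461179-116461428 for Alox5 (minus strand), chr11:50238617-50238782 for Ltc4s (minus strand) and chr6:38918736-38918979 for Tbxas1 (plus strand).
Alox5: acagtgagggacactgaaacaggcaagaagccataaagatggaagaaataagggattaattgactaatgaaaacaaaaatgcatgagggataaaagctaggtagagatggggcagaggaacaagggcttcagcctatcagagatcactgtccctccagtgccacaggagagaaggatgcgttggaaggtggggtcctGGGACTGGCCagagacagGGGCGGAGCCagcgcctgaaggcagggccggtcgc
Ltc4s: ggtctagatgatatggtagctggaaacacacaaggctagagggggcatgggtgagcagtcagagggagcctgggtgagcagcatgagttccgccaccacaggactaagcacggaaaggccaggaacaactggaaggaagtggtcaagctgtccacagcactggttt
Tbxas1: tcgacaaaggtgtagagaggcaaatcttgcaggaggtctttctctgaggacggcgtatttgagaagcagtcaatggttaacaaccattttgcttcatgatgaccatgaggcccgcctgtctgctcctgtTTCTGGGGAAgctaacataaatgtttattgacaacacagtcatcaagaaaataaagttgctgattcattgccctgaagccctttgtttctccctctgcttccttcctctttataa
Tbxas1 held 1 match to the STAT6-type pattern, from 121 to 112 bases before the start, a pattern found in 5.85% of 32841 windows of 250 bases. Alox5 held 2 matches to the NF-κB-type pattern, which 45.8% of windows hold, and Ltc4s held no match to any of the 5. The STAT3-type pattern (7.02% of windows) and the TCF/LEF-type patterns (4.45% and 3.21%) were absent from all 3 windows. A match describes letters and is not a binding site, and a window without one says nothing of the factor. The RefSeq start of Tbxas1 lies within the GENCODE gene, which begins further upstream.

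Per length of exon, the genes spanned a wide range. The length merges all annotated exons of a gene, which gave 1014 bases for Ltc4s, 6102 for Lta4h and 9094 for Tbxas1. Which transcripts the cells made was not read, so levels set between genes depend on this choice of length. In untreated cells, Alox5ap stood at 195 ± 10 RPKM (CPM divided by the exon length in kilobases, mean ± SD, n = 3), above 98.7% of tested genes. Tbxas1 (16.4 ± 0.90) and Lta4h (14.9 ± 0.90) followed, and their ranges, 15.5 to 17.3 and 13.9 to 15.4, lay next to each other without overlap. Ltc4s stood at 7.30 ± 1.2 RPKM, Alox5 at 3.20 ± 0.86, Cysltr1 at 1.62 ± 0.56 and Ltb4r1 at 0.313 ± 0.071, and no neighbouring ranges in this order overlapped. In the remainder, Ltc4s reached 16.9 ± 4.7 RPKM, and its range (13.9 to 22.3) then overlapped those of Lta4h (14.4 to 15.8) and Tbxas1 (21.2 ± 1.9). Without division by length, the remainder means were 17.1 CPM for Ltc4s, 93.5 for Lta4h and 192 for Tbxas1. Alox5 was at 1.26 ± 0.24 RPKM in the remainder, where its range (0.988 to 1.44) overlapped that of Cysltr1 (1.09 to 2.35).

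**Figure D2:**
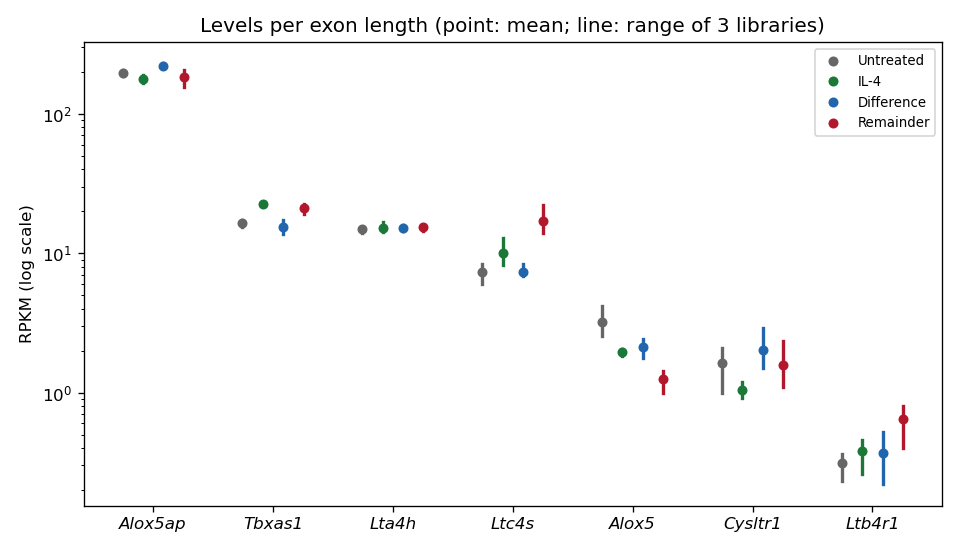
Level of the 7 tested genes per exon length (all annotated exons merged) in RPKM on a log axis, with the mean as a point and the range of the 3 libraries as a line, by group. Alox5ap (155 to 230 RPKM) lies far above the others in every group, and Ltc4s in the remainder (13.9 to 22.3) reaches the range of Lta4h and Tbxas1.

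Alox5 (ENSMUSG00000025701, chr6:116410077-116461178, minus strand, protein coding), the 5-lipoxygenase that starts the leukotriene pathway, had lower levels in all 3 other groups than in untreated cells, and passed the test in the difference and the remainder. Its levels in mouse 1, 2 and 3 were 10.4, 11.8 and 17.1 CPM in untreated cells, 7.55, 8.44 and 8.08 with IL-4, 9.10, 7.33 and 9.89 in the difference, and 5.53, 4.06 and 5.91 in the remainder. Untreated mouse 3 was well above the other two, and the remainder libraries were the 3 lowest of all 12. The groups did not overlap in any of the 4 comparisons. In the remainder the log2 fold change was −1.34 (SE 0.20, edgeR adjusted p = 0.00017, −0.92, −1.55 and −1.53 within mouse 1, 2 and 3), and this call held under all 23 alternatives, with values between −1.54 and −0.93. In the difference it was −0.58 (SE 0.19, adjusted p = 0.04), a call near the threshold that 7 of 15 fits without a mouse or library lost. Without the untreated library of mouse 3 it was −0.35 (edgeR adjusted p = 0.2), and the lost calls also included the fits without mouse 2 (−0.53, adjusted p = 0.12), mouse 3 (−0.43, 0.25), the IL-4 library of mouse 2 (−0.59, 0.056) or mouse 3 (−0.59, 0.055) and the difference library of mouse 1 (−0.62, 0.076) or mouse 2 (−0.47, 0.15).

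With IL-4 alone, the log2 fold change of Alox5 was −0.71 (SE 0.19, 95% interval −1.12 to −0.30, edgeR adjusted p = 0.063), just short of the threshold although lower in 3 of 3 mice. With the mouse as a block it passed (−0.68, adjusted p = 0.048). It also passed with DESeq2 (−0.71, adjusted p = 0.023) and with scaling by total counts (−0.76, edgeR adjusted p = 0.046). Further passes came without the untreated library of mouse 1 (−0.85, edgeR adjusted p = 0.037) and without the remainder library of mouse 2 (−0.72, 0.039). Of the 23 alternatives, however, 15 left Alox5 uncalled and 8 called it, with values between −0.85 and −0.48. In the 15 fits without a mouse or library, its edgeR adjusted p ranged from 0.037 to 0.56. Neutrophils also make Alox5. The summed level of 9 neutrophil markers was 49.1 to 61.5 CPM in untreated cells, 65.0 to 76.0 with IL-4, 36.0 to 57.1 in the difference and 32.2 to 36.6 in the remainder, and Ly6g, a defining marker, had 0, 3, 3 and 1 counts in these groups. The sum was thus lower in the remainder, as Alox5 was, and higher with IL-4, where Alox5 was not, and its part in the result was not tested. Between remainder and difference, Alox5 was lower by a log2 fold change of −0.76 (SE 0.20, adjusted p = 0.044, −0.72, −0.85 and −0.74 within mice). That call was lost in 12 of 15 fits without a mouse or library, where its edgeR adjusted p ranged from 0.024 to 0.23 and its value from −0.88 to −0.60.

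Alox5ap (ENSMUSG00000060063, chr5:149264767-149288153, plus strand) encodes FLAP, which presents arachidonic acid to 5-lipoxygenase, and was the most abundant of the genes. It measured 275, 292 and 263 CPM in untreated cells, 268, 249 and 237 with IL-4, 309, 305 and 327 in the difference and 294, 220 and 265 in the remainder. The difference libraries were above the untreated ones in 3 of 3 mice without overlap, and above the remainder libraries likewise, but the changes were small. Its log2 fold changes were −0.14 with IL-4 (SE 0.10, edgeR adjusted p = 0.57), 0.18 in the difference (SE 0.10, 0.2), −0.09 in the remainder (SE 0.10, 0.51) and −0.27 between remainder and difference (SE 0.10, 95% interval −0.48 to −0.07, adjusted p = 0.13). The ratio of Alox5ap to Alox5 per length was 76.2, 71.4 and 44.5 in untreated cells, 103, 85.2 and 84.8 with IL-4, 98.3, 120 and 95.5 in the difference and 154, 157 and 129 in the remainder. It was thus highest in the 3 remainder libraries and lowest in the untreated ones. The exons of Gm19719, on the opposite strand, cover 13.31% of those of Alox5ap, and that gene stood at 0.739 CPM or less on average in each group.

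Alox15 (ENSMUSG00000018924, chr11:70344152-70352031, minus strand), a lipoxygenase known as an IL-4 response gene in other macrophages and monocytes, was barely detected. It had 1, 1 and 2 counts in untreated cells, 3, 0 and 0 with IL-4, 0, 1 and 0 in the difference and 1, 0 and 0 in the remainder, 9 counts in all. A difference was not detectable at this depth, since no library exceeded 3 counts, a floor that corresponds to 0.161 to 0.218 CPM and covers counting error only.

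Ltc4s (ENSMUSG00000020377, chr11:50236461-50238616, minus strand), which makes leukotriene C4 from the epoxide that 5-lipoxygenase provides, had its highest level in the remainder. It measured 7.63, 8.49 and 6.08 CPM in untreated cells, 13.0, 9.14 and 8.37 with IL-4, 8.47, 7.02 and 6.91 in the difference and 22.6, 14.1 and 14.7 in the remainder. Every remainder library was above all 9 others, and mouse 1 was the highest within the IL-4, difference and remainder groups. In the remainder the log2 fold change against untreated cells was 1.21, a 2.31-fold rise (SE 0.21, edgeR adjusted p = 0.00068, 1.57, 0.73 and 1.27 within mice), and this call held under all 23 alternatives, with values between 0.71 and 1.45. Against the difference it was 1.19 (SE 0.21, adjusted p = 0.004), and the call was lost without mouse 3 (1.25, adjusted p = 0.099). With IL-4 alone the log2 fold change was 0.46 (SE 0.22, 95% interval 0.00 to 0.92, adjusted p = 0.35), with overlapping groups, and in the difference it was 0.02 (SE 0.22, 95% interval −0.45 to 0.49, adjusted p = 0.97).

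Markers of other cell types were read beside Ltc4s. The summed level of 5 dendritic cell markers was 1.44 to 2.42 CPM in untreated cells, 2.24 to 2.43 with IL-4, 2.84 to 7.61 in the difference and 8.41 to 21.2 in the remainder, mostly through Ccr7, a chemokine receptor (0.257, 0.405, 4.05 and 11.3 CPM on average). Among the other 4, Zbtb46 averaged 0.372 CPM in untreated cells and 1.13 in the remainder and Flt3 0.0597 and 0.213, whereas Cd209a averaged 1.09 and 0.0621 and Xcr1 0.239 and 0.124. The part of these cells in the result was not tested. In a bulk sample, fewer cells of a type and less RNA per cell cannot be told apart. Of the 10 markers of mast cells and basophils, cells known for high Ltc4s, Fcer1a, Cma1, Ms4a2 and Tpsb2 were at 0 in every group. The list summed to 5.14 CPM or less. Kit averaged 4.08 CPM in untreated cells, 2.08 with IL-4, 2.56 in the difference and 1.78 in the remainder. In the same order, Hdc averaged 0.367, 0.547, 0.48 and 1.2 CPM, and Cpa3 0.0179, 0.064, 0.294 and 0.212. Gata2, Mcpt8 and Prss34 averaged 0.232 CPM or less in each group. Of the 5 eosinophil markers, Il5ra was at 0 in every group. The list summed to 1.29 to 2.45 CPM in untreated cells and 4.76 to 6.26 with IL-4. It summed to 2.14 to 2.75 CPM in the difference and 2.17 to 5.72 in the remainder. In this order, Siglecf averaged 0.478, 2.79, 0.627 and 1.62 CPM, and Ccr3 1.3, 2.53, 1.66 and 2.11. Prg2 averaged 0.211 CPM or less in each group, and Epx had 1 count, with IL-4. The part of mast cells, basophils and eosinophils in the result was not tested. The exons of Gm26542, on the opposite strand, cover 26.43% of those of Ltc4s. It stood at 0.292, 0.896, 0.982 and 1.39 CPM in untreated, IL-4, difference and remainder libraries, and since a strand setting is not given in the sources used here, reads of the overlap cannot be told apart.

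Lta4h (ENSMUSG00000015889, chr10:93453411-93484875, plus strand), the enzyme that competes with Ltc4s for leukotriene A4, stayed within 84.7 to 102 CPM in the 12 libraries. All groups overlapped. Its log2 fold changes lay between 0.02 and 0.04 in the 4 comparisons, each with an SE of 0.08, and the 95% intervals together reached from −0.16 to 0.21. The ratio of Ltc4s to Lta4h per length was 0.542, 0.542 and 0.388 in untreated cells, 0.770, 0.609 and 0.584 with IL-4, 0.576, 0.462 and 0.426 in the difference and 1.42, 0.962 and 0.914 in the remainder. The ratio thus lay between 0.914 and 1.42 in the remainder and at 0.770 or below in the 9 other libraries. Its absolute size depends on the merged exon lengths, whereas its change between groups does not.

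The receptors were low. Cysltr1 (ENSMUSG00000052821, chrX:106574346-106603679, minus strand), the main receptor for leukotriene D4, measured 10.7, 5.15 and 9.09 CPM in untreated cells, 4.73, 5.11 and 6.13 with IL-4, 14.9, 8.43 and 7.78 in the difference and 6.71, 12.1 and 5.58 in the remainder. Except with IL-4, the libraries of a group spread more widely than the means of the groups did, and mouse 1 was highest in the difference but mouse 2 in the remainder. With IL-4 its log2 fold change was −0.65 (SE 0.33, 95% interval −1.37 to 0.06, edgeR adjusted p = 0.41), lower in 3 of 3 mice, and it passed the test only when all genes with at least 1 count entered the fit (−0.66, adjusted p = 0.012). Its other log2 fold changes were 0.32 in the difference (SE 0.32), −0.03 in the remainder (SE 0.32) and −0.36 between them (SE 0.32), with edgeR adjusted p = 0.51, 0.95 and 0.59.

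Ltb4r1 (ENSMUSG00000046908, chr14:55765962-55768494, plus strand), the high-affinity receptor for leukotriene B4, had between 5 and 18 counts per library. It had 9, 5 and 8 counts in untreated cells, 10, 10 and 5 with IL-4, 9, 5 and 10 in the difference and 18, 9 and 16 in the remainder. In CPM the remainder libraries (0.553 to 1.12) were above the untreated ones (0.322 to 0.502), with a log2 fold change of 1.03 (SE 0.40, 95% interval 0.18 to 1.89, edgeR adjusted p = 0.074). Of 22 alternatives, 21 left it uncalled. It passed only without the remainder library of mouse 2 (1.30, edgeR adjusted p = 0.026).

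Tbxas1 (ENSMUSG00000029925, chr6:38875404-39084585, plus strand), the enzyme that turns prostaglandin H2 into thromboxane A2, separated the 12 libraries into a higher and a lower set. It measured 141, 157 and 149 CPM in untreated cells, 200, 203 and 207 with IL-4, 125, 139 and 157 in the difference and 205, 173 and 199 in the remainder. The IL-4 and remainder libraries were all above the untreated and difference libraries. With IL-4 the log2 fold change was 0.45, a 1.37-fold rise (SE 0.09, edgeR adjusted p = 0.012), and in the remainder it was 0.37 (SE 0.09, adjusted p = 0.0081). Against the difference, the remainder was higher by 0.45 (SE 0.09, adjusted p = 0.0096), and the difference did not pass against untreated cells (−0.08, SE 0.09, 95% interval −0.28 to 0.11, adjusted p = 0.55).

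Some calls of Tbxas1 depended on 1 mouse. With IL-4 the log2 fold change stayed between 0.40 and 0.48 under all alternatives. The call was lost without mouse 2 (edgeR adjusted p = 0.05, just above the threshold), mouse 3 (0.29), the untreated library of mouse 1 (0.063) or mouse 3 (0.058) or the IL-4 library of mouse 2 (0.053) or mouse 3 (0.061). The remainder call was lost without mouse 1 (0.28, adjusted p = 0.066) and mouse 3 (0.35, adjusted p = 0.12), and that against the difference without mouse 1 (0.33, 0.12) and mouse 3 (0.52, 0.14). With the columns compared as labelled, which share reads, both were lost as well (0.14, adjusted p = 0.14, and 0.07, adjusted p = 1). Gm42962, on the opposite strand, covers 1.583% of the exons of Tbxas1 and was at 0.167 CPM or less on average. Of the 50-base stretches of Tbxas1 transcripts, 0.515% are shared with another gene, mostly Gm13270.

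Ephx2 (ENSMUSG00000022040, chr14:66084374-66124500, minus strand), which turns epoxides of fatty acids into diols, had 4, 2 and 1 counts in untreated cells, 0, 1 and 0 with IL-4, 1, 1 and 2 in the difference and 2, 1 and 1 in the remainder. These 16 counts over 12 libraries did not allow a test.

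**Figure D3:**
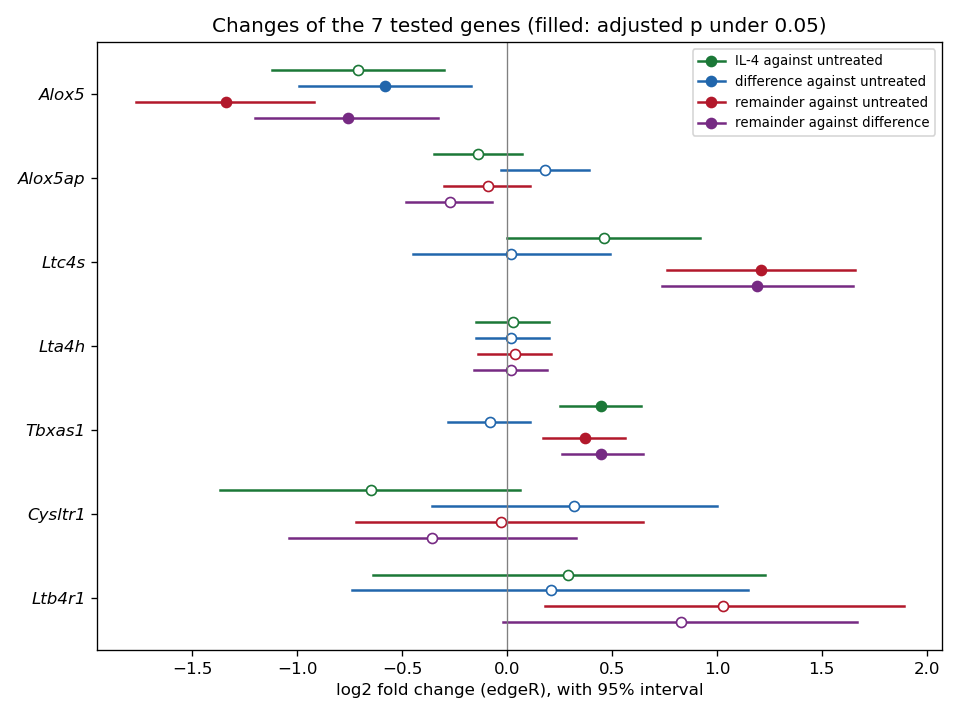
Log2 fold change of the 7 tested genes in 4 comparisons, with the 95% interval as a line. Filled points passed an adjusted p of 0.05: Alox5 in 3 comparisons, Tbxas1 in 3, Ltc4s in 2 and the other 4 genes in none.

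The study asked how Wnt3a changes the response to IL-4. For that question the parts must be assigned, so both ways are given. If the difference holds cells with Wnt3a alone and the remainder cells with both agents (the first assignment), the IL-4 effect with Wnt3a can be set against that without it. Under it, 0 of 7 genes were called by edgeR, against 0.105% of all genes, and 0 by DESeq2, with 1 (Ltc4s) at an unadjusted p under 0.05. The interaction of Ltc4s was 0.73 on the log2 scale (SE 0.30, 95% interval 0.08 to 1.38, edgeR adjusted p = 0.33), with IL-4 differences of 0.46 without and 1.19 with Wnt3a, which did not pass the test against each other. That of Tbxas1 was 0.00 (SE 0.13, 95% interval −0.27 to 0.28), with the IL-4 difference at 0.45 on both sides. That of Alox5 was −0.05 (SE 0.28, 95% interval −0.65 to 0.54), with −0.71 and −0.76.

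Under the reverse (the other assignment), 3 of 7 genes were called against 7.33% of all genes. This assignment reverses the sign of the change between remainder and difference. A gene that moved the same way with IL-4 and from difference to remainder thus gets a large interaction by construction. The 3 genes are the same as those called between remainder and difference, so their interactions are not a separate result. The interactions were 1.47 for Alox5 (SE 0.28, edgeR adjusted p = 0.0042), −1.66 for Ltc4s (SE 0.30, adjusted p = 0.0031) and −0.90 for Tbxas1 (SE 0.13, adjusted p = 4e-04). Without mouse 3 the calls of Alox5 (1.26, adjusted p = 0.094) and Ltc4s (−1.69, 0.064) were lost. Median interactions of the 7 were 0.00 and −0.04 under the first and the other assignment.

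The 12-library pattern of each tested gene was compared with all other genes by Pearson's r of log2 CPM, given as a description with no p, since the libraries share 4 conditions and 3 mice. Tbxas1 was most like Ptgs1 (0.958) and Pdgfa (0.958). Ltc4s was most like Bhlhe40 (0.957) and Stat5a (0.953), and Alox5 was most like Mid1ip1 (0.933) and Ch25h (0.917). Alox5ap was nearest to Orai1 (0.926) and Fxyd5 (0.911), Lta4h to Nop9 (0.954) and Vps35l (0.93), Cysltr1 to Trim12a (0.923) and Dclre1c (0.921), and Ltb4r1 to Selenos (0.892) and Pole3 (0.872).

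Ptgs1, the constitutive cyclooxygenase whose product Tbxas1 converts, measured 33.7, 31.8 and 36.1 CPM in untreated cells, 79.9, 101 and 95.1 with IL-4, 17.6, 19.8 and 32.1 in the difference and 71.9, 67.0 and 86.9 in the remainder. It split the libraries as Tbxas1 did, but by larger folds, with log2 fold changes of 1.44 with IL-4 (SE 0.18, edgeR adjusted p = 0.00026), −0.56 in the difference (SE 0.18, 0.04), 1.15 in the remainder (SE 0.18, 0.00023) and 1.71 between remainder and difference (SE 0.18, adjusted p = 6.8e-05). The ratio of Tbxas1 to Ptgs1 per length was therefore 1.78, 2.11 and 1.76 in untreated cells, 1.07, 0.862 and 0.930 with IL-4, 3.03, 3.01 and 2.09 in the difference and 1.22, 1.10 and 0.977 in the remainder.

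**Figure D4:**
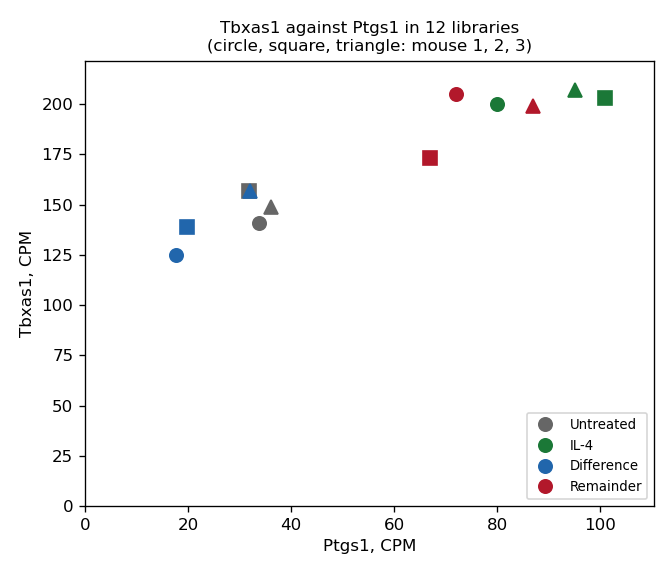
Tbxas1 against Ptgs1 in the 12 libraries, both in CPM, coloured by group, with a symbol for each mouse. The IL-4 and remainder libraries (67.0 to 101 CPM of Ptgs1) lie to the upper right of the untreated and difference libraries (17.6 to 36.1 CPM).

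Around these genes, 56 other genes of eicosanoid metabolism and response were listed, of which 31 passed the filter, 25 did not, and 5 of these had no count. With IL-4, 5 of 31 were called (16.1%, 3 higher and 2 lower, beside 3.4% of all genes). In the difference 15 were called (48.4%, 11 higher and 4 lower, beside 23.2%), in the remainder 16 (51.6%, 11 higher and 5 lower, beside 25.3%), and between remainder and difference 4 (12.9%, 2 higher and 2 lower, beside 5.25%). Their median log2 fold changes were 0.07, 0.11, 0.18 and 0.10. Interactions were called for 0 of 31 under the first assignment (5 at an unadjusted p under 0.05, by edgeR), beside 0.105% of all genes. Under the other they were called for 9 (29%, 5 higher and 4 lower, beside 7.33% of all genes).

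Among the enzymes that work beside Ltc4s, Mgst2, a microsomal glutathione transferase that can also make leukotriene C4, rose in both Wnt3a parts. Its levels were 5.05, 3.41 and 2.70 CPM in untreated cells, 4.02, 2.04 and 3.03 with IL-4, 13.6, 11.2 and 13.7 in the difference and 8.82, 6.08 and 9.72 in the remainder. Its log2 fold changes were 1.77 in the difference (SE 0.25, edgeR adjusted p = 0.00015) and 1.13 in the remainder (SE 0.26, 0.0049), whereas that of Ltc4s in the difference was 0.02. Mgst3, a relative, fell by 0.85 and 0.68 on the log2 scale in the same parts (edgeR adjusted p = 0.00036 and 0.0017). Mgst1 rose by 0.47 with IL-4, 0.43 in the difference and 0.53 in the remainder (edgeR adjusted p = 0.0033, 0.0012 and 0.00017). Of the 5 transferases and peroxidases tested, 1 was higher with IL-4, 2 were higher and 1 lower in the difference, and 3 were higher and 1 lower in the remainder. Of all genes, 3.4%, 23.2% and 25.3% were called in these comparisons.

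Some genes that handle finished leukotrienes also passed the test. Ggt5, which trims leukotriene C4 to leukotriene D4, was lower in both Wnt3a parts, by −0.92 in the difference (SE 0.22, edgeR adjusted p = 0.0065) and −0.81 in the remainder (SE 0.21, 0.012). Of the 5 tested genes of cysteinyl leukotriene breakdown and export, 1 was higher and 1 lower in the difference, beside 23.2% of all genes called. In the remainder, 1 was higher and 3 lower, beside 25.3% of all genes. Cyp4f18, which inactivates leukotriene B4, was higher with IL-4 (0.60, SE 0.15, adjusted p = 0.037) and in the remainder (0.45, SE 0.15, adjusted p = 0.038).

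Other receptors on the list passed the test. Cysltr2, the other cysteinyl leukotriene receptor, measured 0.376, 0.515 and 0.627 CPM in untreated cells and 1.24, 1.60 and 1.18 in the remainder, a log2 fold change of 1.41 (SE 0.30, edgeR adjusted p = 0.0033). It was also higher in the difference (1.00, SE 0.32, adjusted p = 0.034). Cmklr1, a receptor for chemerin and resolvin E1, rose in both Wnt3a parts (1.74 in the difference, 2.02 in the remainder, SE 0.29 in each, edgeR adjusted p = 0.00058 and 0.00014). Fpr1 fell with IL-4 (−1.57, SE 0.29, adjusted p = 0.0062) and in the remainder (−1.48, SE 0.29, 0.0015), with 0.11 in the difference (SE 0.26, 0.81). Fpr2, a formyl peptide receptor that also binds lipoxin A4, fell with IL-4 (−1.25, SE 0.25, edgeR adjusted p = 0.0096), rose in the difference (1.54, SE 0.21, adjusted p = 0.00012), and was lower in the remainder than in the difference (−1.30, SE 0.21, adjusted p = 0.0023).

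Upstream of both branches, 5 of 12 phospholipases A2 were tested. Pla2g15, a lysosomal phospholipase, was higher in the remainder than in the difference (0.48, SE 0.11, edgeR adjusted p = 0.021). Against untreated cells it fell in the difference (−0.47, SE 0.11, adjusted p = 0.0069) and stood at 0.01 in the remainder (SE 0.11, adjusted p = 0.95). The 2 phospholipases higher in the difference, named after their values were seen, were Pla2g7, which breaks down platelet-activating factor (1.45, SE 0.15, edgeR adjusted p = 9.7e-06), and Pla2g4a, the cytosolic enzyme that releases arachidonic acid (0.58, SE 0.19, adjusted p = 0.038). Pla2g7 was also higher in the remainder (1.08, SE 0.15, edgeR adjusted p = 0.00012). Ptgs2, the inducible cyclooxygenase, rose by 2.85 on the log2 scale in the difference (SE 0.36, adjusted p = 4.4e-05) and 3.26 in the remainder (SE 0.35, adjusted p = 9.6e-06). Of the 3 tested epoxide hydrolases and epoxygenases, none was called by edgeR in any of the 4 comparisons.

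**Figure D5:**
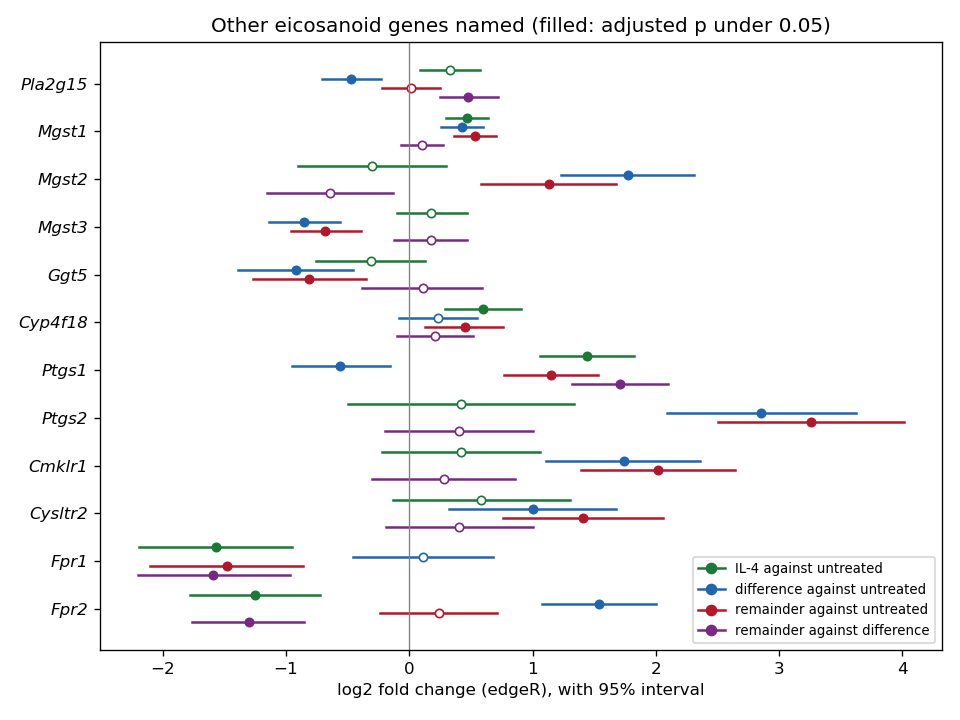
Log2 fold change of the 12 other eicosanoid genes named by the rule for the 4 comparisons. Lines give the 95% interval, and filled points an adjusted p under 0.05. Pla2g7 and Pla2g4a, named in the text after their values were seen, are not shown. Ptgs2, Cmklr1 and Mgst2 lie to the right in both Wnt3a parts, while with IL-4 and in the remainder Ptgs1 lies to the right and Fpr1 to the left.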

How the data were processed

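RNA of 12 BMDM cultures was sequenced as single reads. Per the labels and the study's methods, the authors checked reads with FastQC 0.11.7, trimmed them with Trimmomatic 0.36, mapped the trimmed reads to mm10 with STAR 2.6.0, indexed them with SAMtools 1.9 and counted them per gene with HTSeq 0.11.1. The deposited table holds raw counts without normalization. UCSC genes are named in the methods, whereas the rows are Ensembl identifiers, of which 48058 were paired with a symbol. The table had 0 columns beyond those used. The strand setting is not given in the sources used here.

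Difference and remainder libraries were computed from the Wnt3a and Wnt3a+IL4 columns of each mouse. Genes reaching 10 counts in 3 libraries or more were tested in R 4.3.3 with edgeR 4.0.16 (TMM, quasi-likelihood, 4 groups of 3 in a single fit, no mouse term, Benjamini-Hochberg). SEs were taken as the log2 fold change over the square root of F. The script was tested on simulated data. Alternatives were DESeq2 1.42.0 (the authors used 1.24.0), other scalings, all genes with at least 1 count, only the groups compared, the columns as labelled, a replicate block for the mouse, and each mouse or library left out. At totals of 13342492 to 17453377 counts, 3 counts correspond to 0.161 to 0.218 CPM.

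The labels pair the samples, since each mouse gave a sample to every group. Over the 18 pairs of libraries from the same mouse, the correlation across genes of their deviations from the group mean ran from −0.42 to 0.45, and 6 pairs were over 0.1.

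The 9 genes are all named. Of the other 56, those named by rule had, in each comparison, the 3 largest called rises or the 3 largest called falls. The higher of the compared groups had to average 1 CPM or more. Genes stated as named after their values were seen did not follow this rule. For likeness, the 2 genes with the highest r are named. Members, lists and treatment checks were chosen with earlier results of these data known. Gene positions and exon lengths, with all annotated exons of a gene merged, came from GENCODE M21.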

Additional observations from a re-analysis of the deposited data

Results flagged for a closer look

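Under the other assignment of the parts, in which the remainder holds Wnt3a alone and the difference holds both agents, the IL-4 effect differed between cells with and without Wnt3a for 3 of the 7 members tested and 9 of the 31 other eicosanoid genes tested, by edgeR's quasi-likelihood interaction test. Of all genes tested, 7.33% were called in the same test. The interaction was higher for Alox5 (1.47 on the log2 scale, adjusted p = 0.0042) and lower for Ltc4s (−1.66, adjusted p = 0.0031) and Tbxas1 (−0.90, adjusted p = 4e-04). Among the other eicosanoid genes, the rule for named genes gave 6, with 3.16 for Fpr1 (adjusted p = 0.00017), 2.55 for Fpr2 (adjusted p = 0.00014), 1.17 for Gpr18 (adjusted p = 0.022), −0.81 for Cyp4f18 (adjusted p = 0.026), −0.82 for Pla2g15 (adjusted p = 0.0045) and −3.15 for Ptgs1 (adjusted p = 2.1e-06). The other 3, named after their values were seen, were Pla2g7 (0.95, adjusted p = 0.013), Abcc1 (0.42, adjusted p = 0.02) and Mgst1 (−0.57, adjusted p = 0.005). Under the first assignment, 0 of the 7 members and 0 of the 31 other genes were called by edgeR, beside 0.105% of all genes. The other assignment reverses the sign of the change between the parts. Genes that moved the same way with IL-4 and from difference to remainder thus get large interactions by construction. The 3 members are the same as those called between remainder and difference. Which assignment holds cannot be told from the labels.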

How the results depend on the processing

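Of 947 log2 fold changes of the tested genes under the alternatives, 890 kept their call, 40 lost it, 17 gained one and 0 called values changed sign. The calls of Alox5 and Ltc4s in the remainder against untreated cells held under all 23 alternatives. With IL-4, the number of members called went from 1 to 2 with DESeq2, total-count scaling, the replicate block, the block with total-count scaling and the columns as labelled, and to 3 with all genes with at least 1 count. In the difference it went to 0 with only the groups compared. Between remainder and difference it was 0 when the columns were compared as labelled, which share their reads. For the interaction it was 5 with all genes with at least 1 count and 1 with the columns as labelled under the other assignment, and the step from the first to the other assignment moved it from 0 to 3. Leaving out a mouse or library gave 0 to 2 members called with IL-4, 0 to 1 in the difference, 2 to 4 in the remainder, 0 to 3 between the parts, 0 to 0 for the first assignment and 1 to 4 for the other. Apart from Alox5 with IL-4, the replicate block changed no call of a member.

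Over all genes, calls with IL-4 went from 422 to 812 with all genes with at least 1 count and 708 with the columns as labelled. Between the parts they went from 652 to 1454 with all genes, 422 with only the groups compared and 0 with the columns. For the first assignment they went from 13 to 165 with DESeq2, 575 with all genes, 1 with the block and total-count scaling, 142 with the columns and 910 with the other assignment, for which all genes gave 1505 and the columns 311. Without a mouse or library they ranged from 77 to 532, 1220 to 3188, 1375 to 3807, 97 to 1188, 0 to 43 and 265 to 1459 in the same order. The cause of these changes in the number of calls was not tested. Depth limits Alox15, Ephx2 and Ltb4r1.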
